A study of Mus musculus with 2 samples.

Results

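Hybrid 2X/2A myofibers were single muscle cells in which Myh1, the fast 2X myosin heavy chain, led the myosin heavy chains while Myh2, the fast 2A chain, was still a sizeable part of the pair. Of the 763 cells in the deposited table, 171 had more than 5000 genes detected and under 20% of gene counts from mitochondrial genes. From these, 48 hybrids were selected on measured values: Myh1 had the highest count of Myh1, Myh2, Myh4, Myh7 and Myh8, and Myh2 held 25% to 50% of the Myh1 and Myh2 counts. They were 28.1% of the filtered cells (exact 95% limits 21.5 to 35.4%). The cells on either side were 69 Myh1-leading cells with a Myh2 share under 25%, called low-Myh2 below, and 51 Myh2-leading cells. The 3 remaining filtered cells were led by Myh4 or Myh7.

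By the series description, the source was 1 untreated C57BL/6J mouse. Sex (male) and age (older than 3 months) are from the paper's methods, which name mice of 2 backgrounds, C57BL/6J and DBA2. The muscle was the flexor digitorum brevis (FDB), which lies in the foot and is mostly fast. Whole myofibers were sorted on a large-particle flow sorter, and fragments were made by cutting the muscle as a mock biopsy. The cells were placed singly in 96-well plates for mcSCRB-seq, which tags each captured RNA with a well barcode and a unique molecular identifier (UMI). Plates 705 to 708 were run on lane 1 and plates 709 to 712 on lane 2. As 1 mouse is 1 biological sample, no test was made between groups of cells, and every 95% limit below covers counting error only. The cells were not sampled to represent the muscle, since the gates and the filters decided which were kept.

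A myofiber is a single cell with many nuclei, and its contraction speed follows largely from the myosin heavy chain it makes. Type 2A fibers are fast and oxidative, 2X fibers are faster and more glycolytic, and fibers that make both chains are known as hybrids and are common where fibers change type. Many other parts of the sarcomere also come as slow and fast isoforms, among them troponins, light chains and alpha-actinins. The comparison asked whether these other fiber-type genes were intermediate in the cells whose myosin was mixed.

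Myh2 (GRCm38 chromosome 11, 67171027 to 67197517) and Myh1 (67200052 to 67224575) are neighbors on the plus strand, with 2534 bases between them. The bases just before each gene start are shown because these are the genes that define the hybrids and both were counted in every one of them. They are RefSeq windows of GRCm38.p6, cut at the GENCODE gene start, at chr11:67170777-67171026 for Myh2 and chr11:67199852-67200051 for Myh1. Capitals mark runs of at least 10 bases that occur in both windows.
Myh2: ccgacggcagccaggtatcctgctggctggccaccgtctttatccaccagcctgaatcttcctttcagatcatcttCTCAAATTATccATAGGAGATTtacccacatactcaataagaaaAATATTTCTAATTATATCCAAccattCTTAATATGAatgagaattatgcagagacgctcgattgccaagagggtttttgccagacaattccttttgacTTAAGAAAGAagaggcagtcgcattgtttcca
Myh1: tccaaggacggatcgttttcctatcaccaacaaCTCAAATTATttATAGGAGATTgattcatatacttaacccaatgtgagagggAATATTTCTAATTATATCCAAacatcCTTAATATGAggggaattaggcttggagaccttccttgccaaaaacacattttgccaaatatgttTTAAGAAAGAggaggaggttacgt
The windows shared 5 runs in the same order, 61 bases in all, and the longest was 21 bases, AATATTTCTAATTATATCCAA. Of 32851 promoter windows in the RefSeq table, 2 held that run. No binding or chromatin measurement was made in these cells, so the shared letters are a description only. The coding sequences are close as well: 14.7% of the 66-base stretches of a full-length Myh1 transcript also occurred in Myh2 transcripts, and 12.9% of those in its last 500 bases. The cDNA reads had that length, and reads from such stretches could not be assigned to 1 of the genes.

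In the 48 hybrids the Myh2 share ran from 25% to 49.5% with a median of 33.8%. In low-Myh2 cells it ran from 7.79% to 24.8% (median 17.9%), and in Myh2-leading cells from 52.6% to 93.3% (median 74.3%). These values chose the groups and are given as a description. At the lower threshold, the highest low-Myh2 cell stood at 24.8% and the lowest hybrids at 25% and 25.4%. At the upper end the highest hybrids stood at 48.7% and 49.5% and the lowest Myh2-leading cell at 52.6%. A hybrid held a median of 1949 Myh1 and Myh2 counts (62 to 19417), and in 43 of 48 the exact limits of the share lay wholly inside 25% to 50%. Within the 5 chains, Myh1 made a median of 61.8% of hybrid counts, Myh2 32.1%, Myh8 3.48%, Myh4 1.74% and Myh7 0.310%. Summed Myh1 was 9236 CPM (the usual scaling of a gene by all counts of its group) in hybrids against 12698 CPM in low-Myh2 and 3059 CPM in Myh2-leading cells, and summed Myh2 was 4999 CPM against 2809 and 8853 CPM. The myofiber genes Acta1, skeletal alpha-actin, and Ckm, muscle creatine kinase, were at 29745 and 3661 CPM in hybrids, next to 28461 and 4860 CPM in low-Myh2 cells and 31995 and 3022 CPM in Myh2-leading cells. These 2 genes had no part in the selection.

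**Figure D1:**
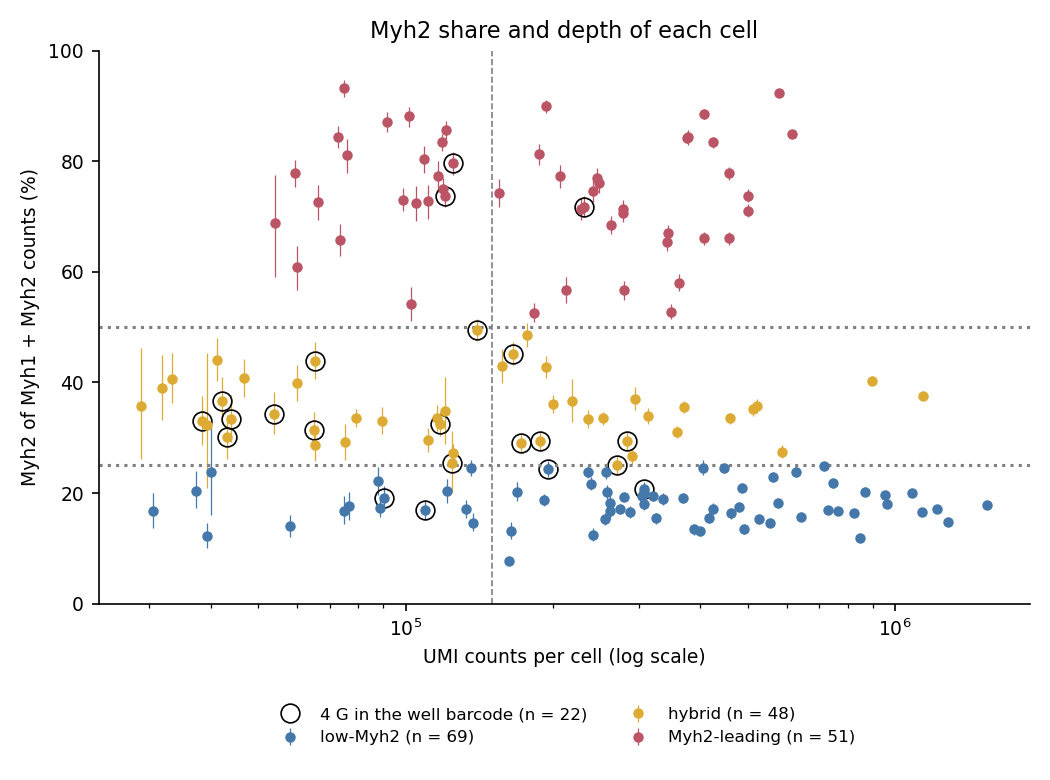
Each point is a cell, placed by its UMI counts (log scale) and by the share of Myh2 in its pair with Myh1 (percent), with bars for exact 95% binomial limits. Dotted lines mark 25% and 50%, the dashed line marks 150000 counts, and black rings mark the 22 cells with 4 G in the well barcode, 15 of them hybrids.

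Hybrids were shallower than the cells around them, and several technical values moved with the group. Their median was 132570 UMI counts and 10669.5 genes, against 306977 and 13768 in low-Myh2 cells and 206510 and 11475 in Myh2-leading cells, and their median mitochondrial share was 7.75% against 4.40% and 6.96%. Hybrids were 25 of the 62 cells under 150000 counts (40.3%, limits 28.1 to 53.6) and 23 of the 109 cells above that (21.1%, limits 13.9 to 30). Within the hybrids, Spearman's rho of the Myh2 share with depth was -0.09 over 48 cells, given as a description. Lane 1 held 29 hybrids among 88 filtered cells and lane 2 held 19 among 83. By plate they ran from 1 of 16 cells on plate 705 to 11 of 23 on plate 708. The 3 fragments that passed the filters were all hybrids, and 45 of 168 whole myofibers were. Fragments filled plate row 8, which held no whole myofibers.

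The well barcode also moved with the group. Barcodes with 4 G among their 6 bases made up 11 of the 96, and 15 of the 22 filtered cells that carried one were hybrids (68.2%, limits 45.1 to 86.1), compared with 33 of 149 other cells (22.1%, limits 15.8 to 29.7). The following 3 barcodes, all in the fifth row of the plates, held 10 hybrids between them and are shown because they held most of those 15 hybrids. Capitals mark the G bases.
Barcode a, 3 hybrids of 6 filtered cells: acGGGG
Barcode b, 4 hybrids of 5 filtered cells: aGGGGc
Barcode c, 3 hybrids of 5 filtered cells: caGGGG
The 15 hybrids with such a barcode had a median mitochondrial share of 13.9%, against 6.45% in the other 33, and a median of 117407 UMI counts against 176742. The Myh2 share of all filtered cells pooled was 32.3%, which lies inside the hybrid range. By plate, with the cells that did not pass the filters also pooled, the share ran from 22.8% to 55.0%. Hybrids lay a median of 4.23 percentage points from that pooled share of their own plate, 2.65 for the 15 and 4.87 for the 33. The Myh2 share that selected the hybrids also enters these distances, so the rule partly set them. They are a description and were not computed for the outer groups. The part of RNA or counts from other wells in the hybrid class was not tested directly. The isoform pairs, the slow and fast contractile lists and the share of hybrids are therefore also given for cells of at least 150000 counts without 4 G barcodes. Levels and positions of the other lists and of single genes are not given in that setting. All 763 full barcodes were distinct, and the 96 well barcodes were used on both lanes.

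By summed counts, all 13 slow and fast isoform pairs were intermediate in the hybrids. By medians over cells 12 were, and the order of the pairs differed. A pair is read as the slow-type member's share of the counts of both, which does not depend on a cell's total. Its position is the log2 odds of the hybrids on a scale where low-Myh2 cells are 0% and Myh2-leading cells are 100%. The median position of the 13 pairs was 32.3%, from 8.84% to 54.8%, and Myh2 over Myh1, which the selection fixed, lay at 34.8%. Computed from the median share over cells instead, a choice made after seeing the data, the median position was 39.4%, and calsequestrin was outside the range at -25.5%. Genes at large set the background: of 993 genes at least 1.5-fold apart between the outer groups, hybrids lay between them for 842 (84.8%), with a median position of 42.4%. This was 259 of the 295 genes higher in Myh2-leading cells (87.8%) and 583 of the 698 lower there (83.5%). Lying between was thus the rule for genes that separated the outer groups, and the pairs are read against it.

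Among the sarcomere proteins, alpha-actinin, which anchors thin filaments in the Z-disc, separated the outer groups fully. Actn2, its general striated-muscle form, made up 19.9% to 50.9% of Actn2 and Actn3 counts in low-Myh2 cells (median 34.2%), 29.4% to 83.3% in hybrids (median 51.6%) and 54.9% to 90.7% in Myh2-leading cells (median 76.2%). Of the 48 hybrids, 26 stood above the highest low-Myh2 cell and 28 below the lowest Myh2-leading cell, while the outer groups did not overlap. Summed over cells, the share was 52.9% in hybrids (limits 52.3 to 53.4) against 34.9% and 77.8%, a position of 39.4% by sums and by cell medians alike.

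Calsarcin, a Z-disc protein that binds calcineurin, had the highest position of the pairs by summed counts. Myoz2, the slow-fiber calsarcin, held 8.22% of Myoz1 and Myoz2 counts in low-Myh2 cells, 20.4% in hybrids (limits 19.9 to 20.9) and 37.9% in Myh2-leading cells, a position of 54.8%. By cell the hybrids ran from 1.92% to 37.8% with a median of 17.95%, and 23 of 48 exceeded the highest low-Myh2 cell at 18.9%. They overlapped widely with the Myh2-leading cells, where the lowest cell was at 6.67% and the median at 36.4%. By cell medians its position was 50.1%.

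The troponins, which switch the thin filament on with calcium, had summed positions under 35%, but troponin C was higher by cell medians. Tnnt1, slow troponin T, was 1.77% of Tnnt1 and Tnnt3 counts in low-Myh2 cells, 3.13% in hybrids (limits 3.03 to 3.23) and 21.7% in Myh2-leading cells, a position of 21.3%. By cell the hybrids ran from 0 to 13.7% with a median of 3.63%, so that 12 exceeded the highest low-Myh2 cell at 5.88% and 28 fell below the lowest Myh2-leading cell at 4.25%. Tnni1, slow troponin I, held 4.22%, 7.47% and 21.2% of its pair in the same order, a position of 33.4%. Tnnc1, the slow and cardiac troponin C, held 26.5%, 36.9% and 73.7%, a position of 23.6%. For this pair the medians over cells were 24.6%, 48.6% and 69.5%, a position of 54.7%. Troponin T and troponin I were at 36.3% and 36.2% by cell medians.

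The light chains that sit on the myosin neck were closest to the low-Myh2 cells in summed counts, though not by cell medians. Myl2, the slow regulatory chain, was 0.754% of Myl2 and Mylpf counts in low-Myh2 cells, 0.934% in hybrids (limits 0.883 to 0.988) and 8.06% in Myh2-leading cells, a position of 8.84%. Myl3, the slow essential chain, was 0.545%, 0.801% and 6.03% of its pair with Myl1, a position of 15.8%. The medians over cells were 0.423%, 0.928% and 3.04% for Myl2 and 0.356%, 0.874% and 2.39% for Myl3, positions of 39.5% and 47.0%. Their low summed positions were thus not those of the typical cell. Myosin binding protein C lay at 25.5%, as Mybpc1, the slow form, made up 83.6%, 88.3% and 95.9% of its pair with the fast form Mybpc2. Lactate dehydrogenase lay at 42.8%, with Ldhb, the heart-type subunit, at 5.67%, 12.2% and 29.9%, and all but 1 of the hybrids were between the medians of the outer groups. The myomesin pair, M-band proteins, lay at 49.9%, calsequestrin, which stores calcium, at 42.8%, the calcium pump at 32.3% and the sodium pump beta subunit at 29.9%. In the calsequestrin and calcium pump pairs the slow member was under 2.5% of summed counts in every group, and 27 and 19 hybrids lay at or below the low-Myh2 median. For calsequestrin the hybrid median of 0.280% was below the 0.383% of low-Myh2 cells.

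**Figure D2:**
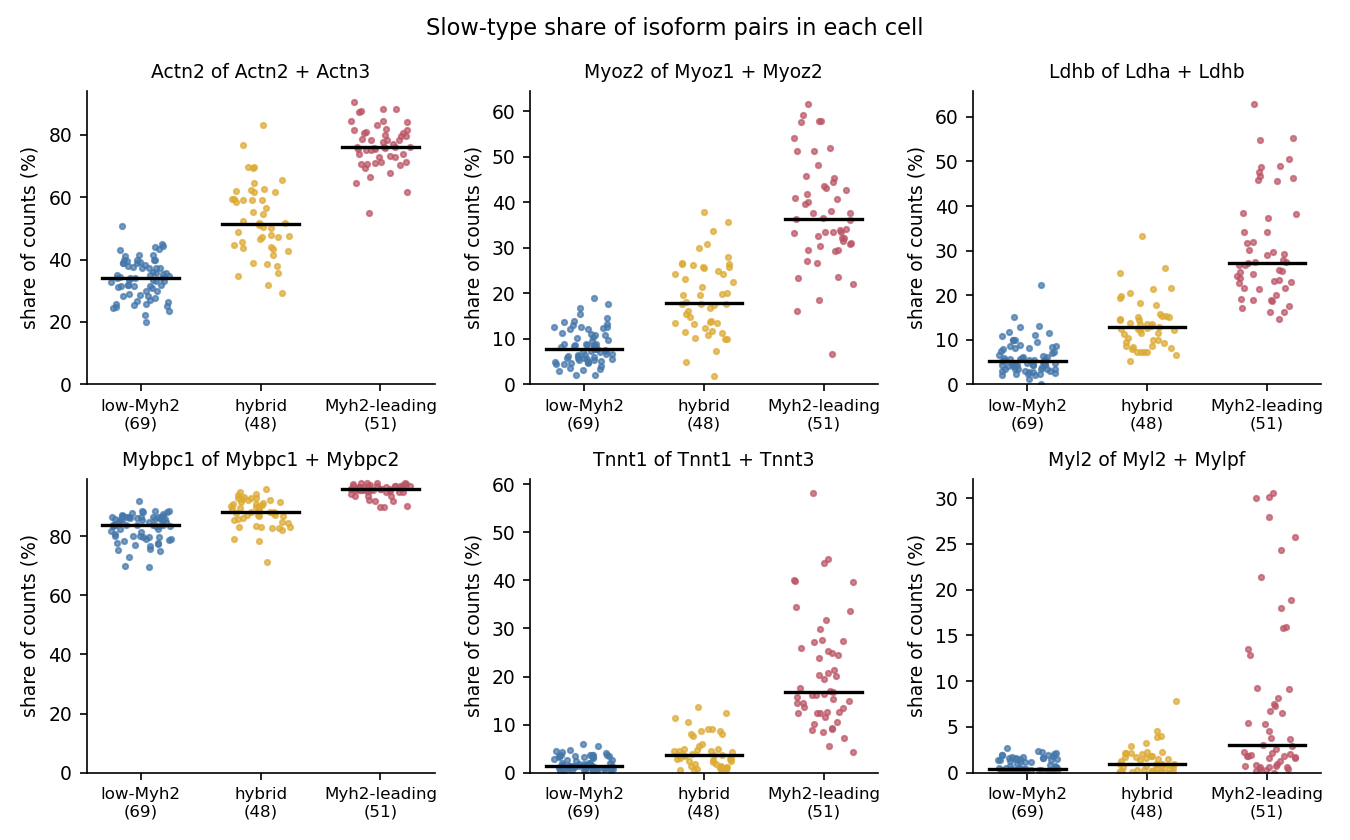
Each point is a cell, and the vertical axis gives the slow-type member's share of a pair's counts in percent for 6 pairs, with group medians as black bars and the number of cells in parentheses. Hybrid medians lay between those of the outer groups in all 6 panels, for Actn2 at 51.6% against 34.2% and 76.2% and for Myl2 at 0.928% against 0.423% and 3.04%.

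Hybrids with and without a 4 G barcode differed in several pairs, and the shares of all filtered cells pooled are given beside them. The 33 hybrids without a 4 G barcode had an Actn2 share of 55.0% (limits 54.4 to 55.6), above the pooled 46.8%, and a Tnnc1 share of 34.4% (limits 33.6 to 35.3), below the pooled 49.9%. Their Tnnt1 share was 2.88% against 7.74% pooled, and their Myoz2 share was 21.5% against 16.9%. The 15 hybrids with a 4 G barcode were nearer to the pool for Actn2 (44.1%, limits 42.9 to 45.4), Tnnc1 (50.4%, limits 48.3 to 52.4) and Myoz2 (16.1%, limits 15.1 to 17.2), and had a Tnnt1 share of 4.24%. In log2 odds they were nearer to the pool than the 33 in 10 of the 13 pairs and farther in 3. These 3 were lactate dehydrogenase (10.1% against 12.8% in the 33 and 12.03% pooled), calsequestrin (0.570% against 1.23% and 1.09%) and myosin binding protein C (84.6% against 89.1% and 87.1%). All 22 filtered cells with a 4 G barcode, the 15 hybrids and cells of the outer groups, were then left out. With only cells of at least 150000 counts kept in every group, 18 hybrids remained and the median position of the pairs was 31.8%. In those cells alpha-actinin lay at 42.8%, calsarcin at 57.2%, troponin T at 17.1%, troponin C at 17.5% and the regulatory light chain at 2.99%.

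**Figure D3:**
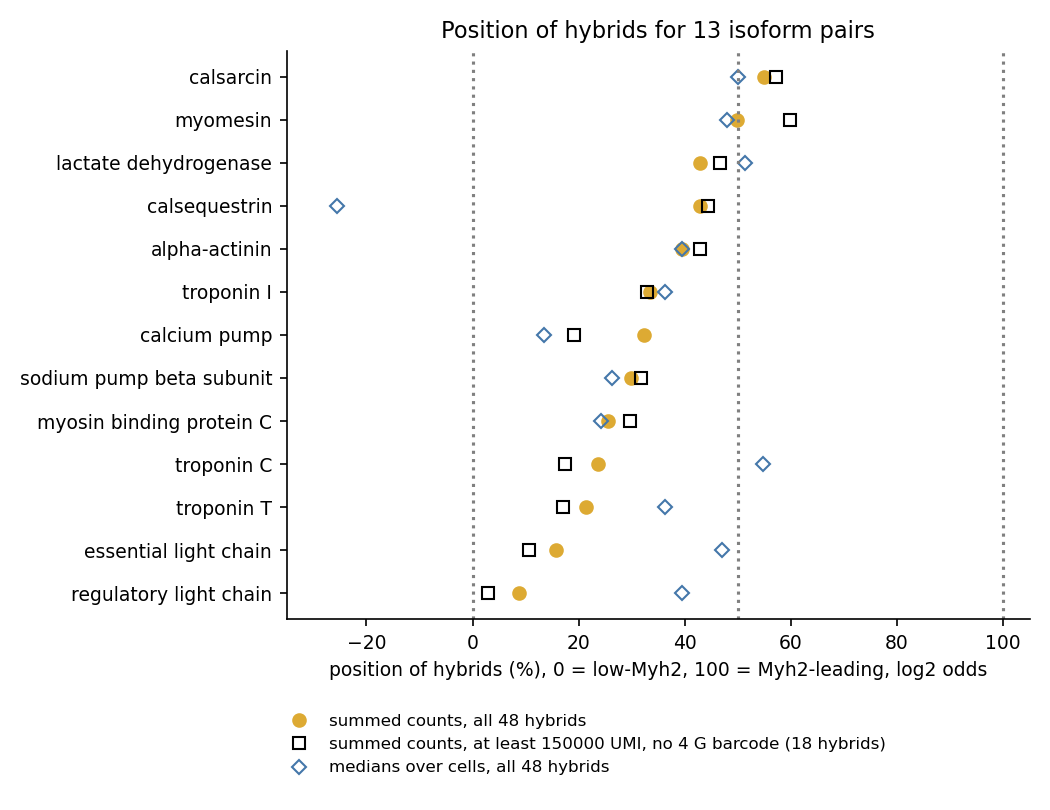
The horizontal axis gives the position of the hybrids for 13 isoform pairs, in percent of the log2 odds difference from low-Myh2 (0) to Myh2-leading cells (100), with 1 pair per line. Filled circles are summed counts of all 48 hybrids, from 8.84% to 54.8%, diamonds are medians over cells, from -25.5% to 54.7%, and open squares are the 18 deep hybrids without a 4 G barcode, in which the regulatory light chain was again lowest (2.99%) and myomesin was highest (59.8%).

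Over single genes, levels are CPM of counts summed over a group, and a gene is called higher or lower at 1.5-fold. Where 3 levels of a gene are listed, they are those of low-Myh2, hybrid and Myh2-leading cells in that order. Of 8648 genes with at least 500 counts, 263 (3.04%) were at least 1.5-fold higher in hybrids than in low-Myh2 cells and 269 (3.11%) were lower. Against Myh2-leading cells 623 (7.2%) were higher and 221 (2.56%) lower. On lane 1 alone 174 were higher and 187 lower than in low-Myh2 cells, and on lane 2 alone 355 and 310. Median log2 ratios over all these genes were -0.06 against low-Myh2 and 0.04 against Myh2-leading cells.

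Of 16 genes in the fast list, 11 were apart between the outer groups, all lower in Myh2-leading cells and all intermediate in hybrids, with a median position of 44.8%. In this list 7 were at least 1.5-fold lower in hybrids than in low-Myh2 cells and none was higher. Actn3, the fast-fiber alpha-actinin, was at 673 to 4692 CPM in low-Myh2 cells (median 2849), 335 to 3521 CPM in hybrids (median 1566) and 441 to 1165 CPM in Myh2-leading cells (median 781). The ranges overlapped, but the medians stepped down in order, and the summed log2 ratio of hybrid to low-Myh2 was -0.84 (limits -0.86 to -0.82). Pvalb, parvalbumin, which takes up calcium to speed relaxation, had medians of 7050, 3935 and 2021 CPM, a position of 44.8%. Myom2, a fast-fiber M-band protein, went from 70.7 to 26.7 and 10.8 CPM summed, a position of 52.0%. Mybpc2 and Mss51, a mitochondrial protein of fast fibers, were at 29.5% and 29.4%. The list median was 22.9% with the lower limit of the hybrid range at 20% and 73.3% in cells under 150000 counts.

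Of 16 slow contractile genes, 14 were apart between the outer groups, all were higher in Myh2-leading cells and all 14 lay between, with a median position of 26.1%. The median was 12.8% on lane 1 alone and 33.6% on lane 2 alone. In Myh2-leading cells Myh7, the slow chain, made up to 43.2% of the 5 chains (median 1.02%), against up to 6.69% in hybrids. With cells of at least 10% Myh7 left out, all 48 hybrids stayed and the list median was 32.1%. In deep cells without 4 G barcodes 12 of the 14 lay between, with a median of 25%. At 1.5-fold, 5 of the 16 were higher in hybrids than in low-Myh2 cells, next to 3.04% of all genes. Tnnt1 was at 41.8 to 800 CPM in low-Myh2 cells (median 173), 0 to 1264 CPM in hybrids (median 369) and 539 to 8315 CPM in Myh2-leading cells (median 2348), so that most hybrids lay below the Myh2-leading cells. Myoz2 was at 203, 438 and 784 CPM by the same medians, and its summed log2 ratio of hybrid to low-Myh2 was 1.14 (limits 1.09 to 1.20), the highest of the list. Tpm3, slow tropomyosin, stood at 55.8, 58.3 and 328 CPM, with a log2 ratio of 0.06 whose limits held 0 (-0.08 to 0.20). Myl2 and Myl3 were at positions of 6.08% and 10.3%. On the linear CPM scale, Tnnt1 was at 4.79%, Myoz2 at 44.3%, Actn3 at 60.1% and Myom2 at 73.6%. Over all separated genes the linear medians were 34.1% for those higher in Myh2-leading cells and 49.7% for those lower there. Whether hybrids were a blend of the outer groups was not tested.

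**Figure D4:**
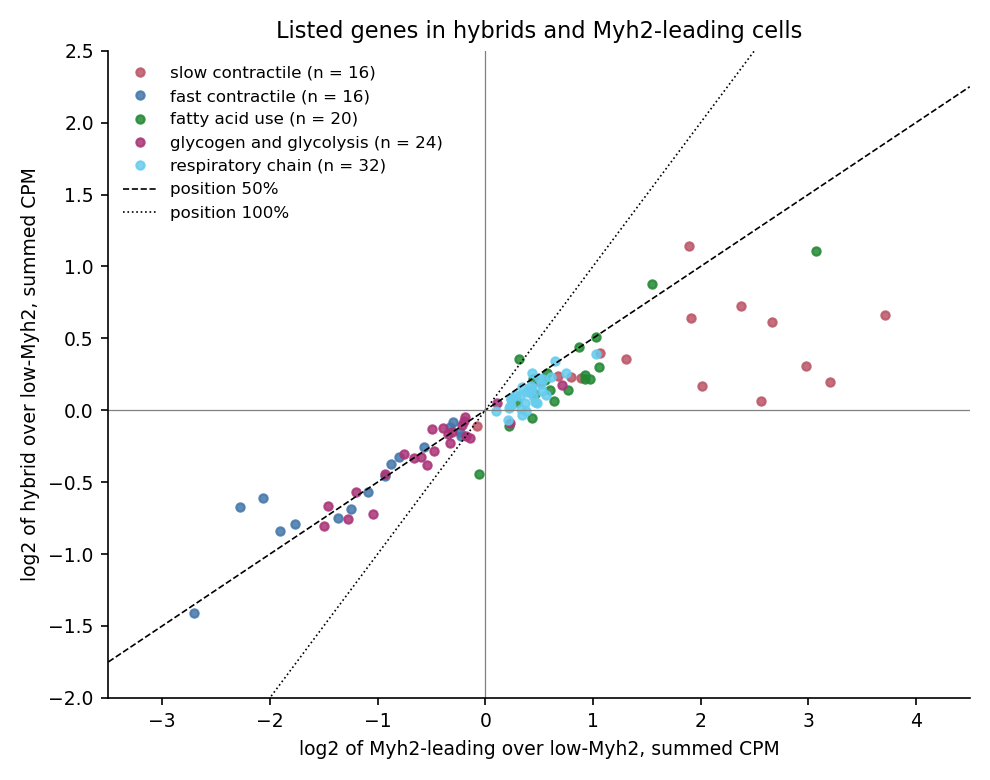
Each point is a listed gene, with the log2 ratio of Myh2-leading to low-Myh2 cells on the horizontal axis and that of hybrid to low-Myh2 cells on the vertical axis, both from summed CPM. Most glycolytic and many fast contractile genes lie near the dashed line of position 50%, while most slow contractile genes with large ratios lie below it. The list medians were 44.8% for fast and 26.1% for slow contractile genes.

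Inside the hybrids and along the whole range of cells, the pairs followed the Myh2 share unequally. Over the 48 hybrids, Spearman's rho of the Myh2 share with the Actn2 share was 0.51, with the Atp1b1 share 0.45 over 47 cells, with the Myoz2 share 0.40 and with the Tnni1 share 0.38. It was 0.18 for Tnnt1, 0.03 for Myl2 and -0.11 for Tnnc1. These are descriptions over cells that share libraries and plates. In bins of 5 percentage points, each with under 20 cells, the summed Actn2 share went from 42.0% at 25% to 30% (11 cells) to 53.2% (16 cells), 57.5% (11 cells), 60.4% (7 cells) and 61.6% at 45% to 50% (3 cells). The Tnnt1 share went through 2.72%, 3.60%, 2.98%, 2.85% and 4.61% over the same bins. Over all groups it was 3.31% at a Myh2 share of 40% to 50% (10 cells), 9.63% at 50% to 60% (6 cells), 18.8% at 70% to 80% (21 cells) and 32.1% at 80% to 90% (14 cells). In Myh2-leading cells its rho with the Myh2 share was 0.75. As summed percents, the slow troponin T share was thus low through the hybrid range and high in Myh2-leading cells, whereas the alpha-actinin share differed already among the hybrids. In log2 odds of cell medians the hybrids had close positions in these pairs, 36.3% for troponin T and 39.4% for alpha-actinin. Some Myh2-leading cells were partly slow, with Myh7 at up to 43.2% of the 5 chains.

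**Figure D5:**
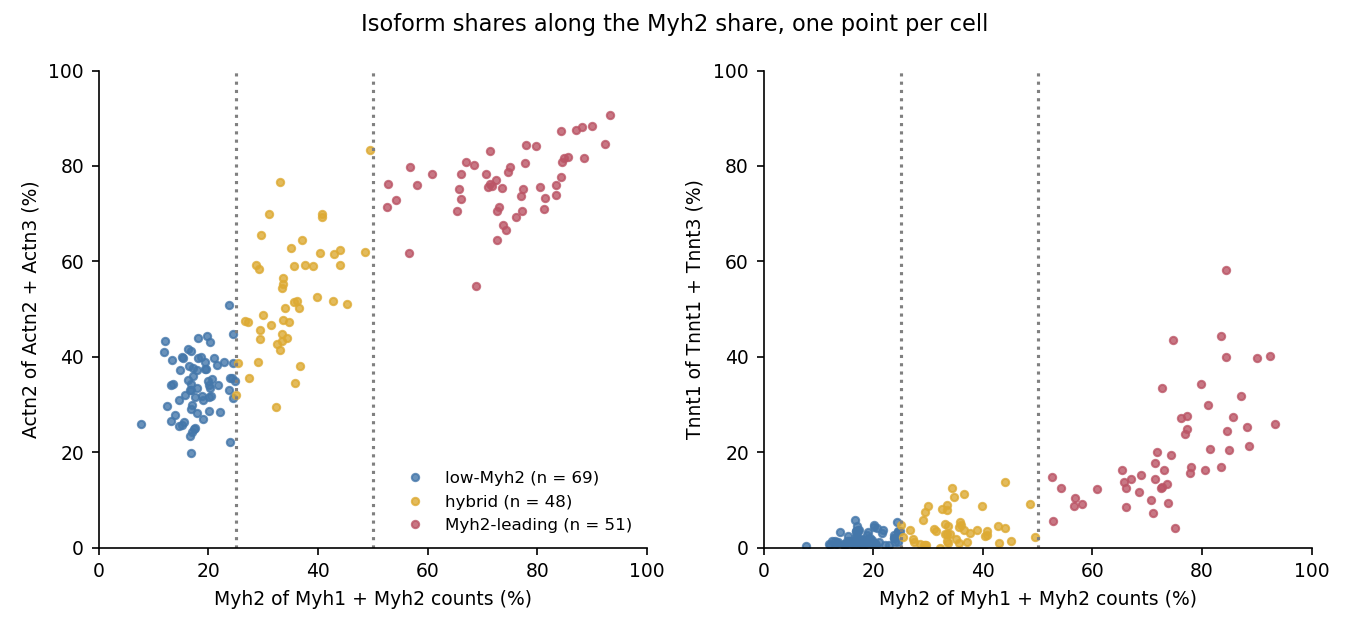
Each point is a cell, placed by the share of Myh2 in its pair with Myh1 (horizontal axis, percent) and by the Actn2 share (left) or the Tnnt1 share (right, percent), with dotted lines at 25% and 50%. Between the lines the summed Actn2 share went from 42.0% to 61.6%, while the summed Tnnt1 share stayed between 2.72% and 4.61%.

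Metabolic genes that separated the outer groups lay between, as 84.8% of all separated genes did. The count minimum was 100 for list members and 500 for all genes. In the fatty acid list 11 of 20 measured were apart. All 11 were higher in Myh2-leading cells and all lay between, with a median position of 26.5%. In this list 2 were at least 1.5-fold higher in hybrids than in low-Myh2 cells, next to 3.04% of all genes. Lpl, lipoprotein lipase, which frees fatty acids from circulating lipid, was at 0 to 210 CPM in low-Myh2 cells (median 7.63), 0 to 235 CPM in hybrids (median 26.0) and 17.2 to 361 CPM in Myh2-leading cells (median 87.9). Its summed log2 ratio of hybrid to low-Myh2 was 1.11 (limits 0.87 to 1.35), although the ranges overlapped. Cd36, a fatty acid transporter, was at 21.5, 39.5 and 63.0 CPM, a position of 56.5%. Lpl and Cd36 are also made by fat and endothelial cells. Fabp3, which carries fatty acids in the cytoplasm, was at 79.0, 97.5 and 164 CPM, a position of 28.9%.

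Of 32 measured respiratory chain genes 4 were apart, next to 993 of 8648 among all genes at their higher count minimum. All 4 lay between (median position 38.1%). None of the 32 was 1.5-fold different between hybrids and low-Myh2 cells, where 3.04% of all genes were higher and 3.11% lower. Coq8a, needed for coenzyme Q, was at 324, 425 and 659 CPM. In the citric acid cycle and shuttle list 5 of 19 were apart and all lay between, with a median of 31.0%. Gpt2, the mitochondrial alanine aminotransferase, moved down, at 90.7, 44.5 and 31.0 CPM with a log2 ratio of hybrid to low-Myh2 of -1.03 (limits -1.17 to -0.88). It was the only one of the 19 past 1.5-fold, next to 3.11% of all genes lower and 3.04% higher. Got1, the cytosolic aspartate aminotransferase, moved the other way, at 66.5, 98.4 and 139 CPM.

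Glycogen and glycolysis genes had 10 of 24 apart, 9 of them lower in Myh2-leading cells, all between with a median position of 48.8%. Of the 24, 4 were at least 1.5-fold lower in hybrids than in low-Myh2 cells, next to 3.11% of all genes. Gpd1, glycerol-3-phosphate dehydrogenase, was at 28.6 to 299 CPM in low-Myh2 cells (median 114), 0 to 186 CPM in hybrids (median 60.4) and 0 to 197 CPM in Myh2-leading cells (median 41.1). Phka1, a regulatory subunit of the kinase that starts glycogen breakdown, was at 286, 169 and 118 CPM, and Prkag3, an AMP kinase subunit of glycolytic muscle, at 134, 84.6 and 48.8 CPM. Pfkfb3, which makes the activator of phosphofructokinase, was at 156, 94.9 and 75.8 CPM, a position of 68.9%.

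Of 11 genes of oxygen and energy handling, 10 were apart and all lay between, with a median position of 50.9%. Ldhb was at 84.8, 159 and 356 CPM, Ckmt2, the mitochondrial creatine kinase, at 129, 219 and 422 CPM, and Perm1, a muscle regulator of oxidative genes, at 47.6, 82.6 and 125 CPM, each at least 1.5-fold higher in hybrids than in low-Myh2 cells. Ampd1, the muscle AMP deaminase, was lower, at 558, 349.8 and 255 CPM. Fndc5, a membrane protein linked to exercise, had a position of 27.4%.

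Of 15 regulators apart among 32, 13 lay between, near the share of all separated genes (84.8%, at the higher count minimum), with a median position of 48.4%. In hybrids 3 of the 32 were at least 1.5-fold higher and 4 lower than in low-Myh2 cells, next to 3.04% and 3.11% of all genes. Maf, a transcription factor of fast fibers, was at 0 to 267 CPM in low-Myh2 cells (median 104), 0 to 139 CPM in hybrids (median 37.8) and 0 to 75.3 CPM in Myh2-leading cells (median 17.6), a position of 48.4%. Mafa, a related factor named after its values were seen, was at 62.7, 33.0 and 26.8 CPM, a position of 75.4%, closer to the Myh2-leading cells. Myhas, an antisense RNA of the fast myosin locus, was at 45.1, 22.4 and 12.8 CPM. It overlaps Myh1 on the other strand (67211256 to 67237573), and whether the counting used strand is not given in the sources used here. Tfcp2l1, a transcription factor, was at 33.8, 26.8 and 9.91 CPM, and H19, a growth-linked noncoding RNA, at 146, 175 and 412 CPM, positions of 18.8% and 17.7%. The members outside, named for that after their values were seen, were Ppara, a sensor of fatty acids, at 8.58, 16.2 and 15.4 CPM, and Rcan1, an inhibitor of calcineurin, at 124, 113 and 221 CPM.

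Membrane pumps and channels had 10 of 16 apart, all between, with a median position of 42.9%. Of the 16, 2 were at least 1.5-fold higher and 2 lower in hybrids than in low-Myh2 cells, next to 3.04% and 3.11% of all genes. Homer2, a scaffold for calcium channels, was at 0 to 103 CPM in low-Myh2 cells (median 20.8), 0 to 143 CPM in hybrids (median 50.6) and 28.6 to 425 CPM in Myh2-leading cells (median 118). Fxyd6, a sodium pump modulator, was at 83.1, 158 and 351 CPM. Ryr3, a calcium release channel, was at 173, 70.7 and 58.2 CPM, a position of 82.1%. Atp1b2, a beta subunit of the sodium pump, was at 134, 78.1 and 31.7 CPM, a position of 37.7%, and Kcnma1, a calcium-activated potassium channel, at 285, 343 and 576 CPM, a position of 26.1%.

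The remaining heavy chains also differed. Myh8, the perinatal chain, which was used only to see that it did not lead, was at 932, 549 and 158 CPM, and Myh4, the 2B chain, at 174, 244 and 464 CPM. Myh7, the slow chain, was at 74.0, 78.1 and 647 CPM, with a log2 ratio of hybrid to low-Myh2 whose limits held 0 (-0.04 to 0.20). Myh6, Myh3 and Myh7b, which had no part in the selection, were apart between the outer groups and lay between, at 4.22%, 11.7% and 50.8%. These 3 had 13.2, 17.8 and 11.8 CPM in hybrids.

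Genes named by size of the difference alone included several outside the lists. The 10 with the highest ratio of hybrid to low-Myh2 cells that kept direction on both lanes and in the median over cells were Togaram2, Fgfrl1, Vangl1, Myoz2, Sbk3, Zfp618, Lpl, Homer2, Enho and Rnase4, with log2 ratios from 1.34 to 1.01. Fgfrl1, a receptor-like binder of fibroblast growth factors, was at 10.2, 24.8 and 44.5 CPM. The 10 lowest were Odf3l2, Amd2, Ucp1, Gm5432, Kcnh7, Amd1, Myom2, Ddr2, Neto2 and Ryr3, with log2 ratios from -1.81 to -1.29. Odf3l2, an outer dense fiber family member, was at 0 to 443 CPM in low-Myh2 cells (median 123), 0 to 182 CPM in hybrids (median 29.4) and 0 to 99.9 CPM in Myh2-leading cells (median 29.3), a position of 81.3%. Amd1 and Amd2, near-identical copies of the enzyme that commits to polyamine synthesis, were at 33.4 and 9.05 CPM in hybrids against 90.7 and 27.8 CPM in low-Myh2 cells, and reads could be split between them. The 10 lowest were chosen by that ratio, so their positions, all above 50%, are a description. Ddr2, at 57.6, 22.7 and 26.0 CPM, had a position of 116.9%, so hybrids were below both outer groups.

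Hybrids were at least 1.5-fold above both outer groups for 130 of the 263 genes, among 8648, that were higher than in low-Myh2 cells. For 28 of the 269 lower genes they were below both. These genes also needed at least 50 counts in the hybrids or the low-Myh2 cells. Of the 130, 43 kept direction on both lanes and in cell medians with no cell holding over 20% of the counts, and 19 of the 28 did. Vangl1, a planar polarity protein, was the first above both, at 26.2 CPM against 10.9 and 11.6 CPM. By cell it was at 0 to 362 CPM in hybrids (median 12.5), next to medians of 5.92 and 8.11 CPM, so that the groups overlapped throughout. Zfp618, Rnase4, Gm973, Kcnab2, Itgbl1, Itpkb and Ldb2 followed, at 16.3 to 28.1 CPM in hybrids. Rpia, an enzyme of the pentose phosphate route, was the first below both, at 5.27 CPM against 12.4 and 9.99 CPM. Gpr108, Gsto1, C1qtnf12, Nars2, B3gat3, Glmp and Snrpd1 followed, at 7.36 to 12.7 CPM in hybrids. All of these were low in every group.

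Markers of other cell types moved with the sums above both groups. Summed endothelial markers were at 220 CPM in hybrids against 145 and 148 CPM, smooth muscle and pericyte markers at 160 against 64.2 and 79.7 CPM, fibroblast markers at 100.4 against 41.9 and 55.7 CPM, Schwann markers at 101 against 37.8 and 47.0 CPM and red blood cell markers at 38.1 against 16.4 and 8.82 CPM. Satellite cell markers (22.9 against 20.1 and 20.6 CPM) and immune markers (20.2 against 17.3 and 17.6 CPM) differed less. At least 1.5-fold higher in hybrids than in low-Myh2 cells were 5 of 6 endothelial, 5 of 5 smooth muscle, 5 of 5 fibroblast, 4 of 4 Schwann and 2 of 2 red blood cell markers measured. Of all genes, at their higher count minimum, 3.04% were. Each of these lists named 6 markers, or 5 for red blood cells, and members under the lists' count minimum are not in these counts. The medians over cells were closer, for instance 136 against 124 and 125 CPM for the endothelial list and 39.4 against 32.5 and 39.4 CPM for the Schwann list. For the smooth muscle and pericyte list they were 91.8 against 49.8 and 68.5 CPM. In all, 5 hybrids held at least 2000 CPM of all other-cell markers, up to 16805 CPM, and 1 cell in each outer group did. With the cells over that limit left out, 103 genes in place of 263 were at least 1.5-fold higher in hybrids than in low-Myh2 cells, and 377 in place of 269 were lower. The slow contractile median was then 21.3%, the fast contractile median 41.8% and the median of the pairs 29.9%.

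Lists tied to innervation and handling were too short to set their counts apart from those of all genes. Of all genes, at their higher count minimum, 993 of 8648 were apart between the outer groups. In hybrids 3.04% were at least 1.5-fold higher and 3.11% lower than in low-Myh2 cells. Of 8 genes of the neuromuscular junction 2 were apart, and none of the 8 was 1.5-fold different between hybrids and low-Myh2 cells. Their summed level was 595 CPM in hybrids against 712 and 555 CPM. Of 9 measured immediate early genes, which respond to dissociation, 1 was apart and none passed 1.5-fold, at 2269 CPM summed against 2477 and 2268 CPM.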

How the data were processed

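The deposited table holds UMI counts per gene and cell for both sequencing lanes, with well, plate and cell kind. The authors mapped 66-base cDNA reads with STAR 2.5.4b to GRCm38 (mm10) with spike-in sequences and counted UMIs with zUMIs and featureCounts, and the submitters' processing notes also name Cell Ranger 3.1.0 without a role. Besides these counts, the table's header rows deposited by the authors hold other values per cell, such as percents, which were not used. With Python 3.11.15, pandas 2.3.3 and scipy 1.17.1, the study's filters were applied (over 5000 genes, under 20% mitochondrial counts) and cells were grouped by Myh counts. Counts were summed per group and scaled to CPM, with exact binomial limits (95%) for shares and ratios. Summed gene counts were 10057649 for hybrids, 29122361 for low-Myh2 and 11907400 for Myh2-leading cells. Genes needed 500 counts over the groups and list members 100. Named were, per list, up to 5 members with the largest difference between the outer groups, both members of each pair, the 10 highest and 10 lowest ratios, and 8 genes above and 8 below both groups, under conditions given in the text. Other-cell lists are given as sums. The members and lists were chosen with earlier results of these data known. Lanes hold cells of the same mouse and are not separate animals. Scripts were tested on simulated data. Alternatives covered scaling, depth, lanes, plates, limits, filters and other-cell signal. One listed gene is not reported here.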

Additional observations from a re-analysis of the deposited data

Results flagged for a closer look

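Among the 592 cells that did not pass the filters, 347 held at least 50 Myh1 and Myh2 counts, and 240 of these lay in the hybrid range of Myh2 shares (69.2%, limits 64.0 to 74.0). Among the filtered cells the share of hybrids was 28.1%. The excluded cells stood out because they belong to no comparison above and because their median Myh2 share of 33.3% (quartiles 27.9% and 39.9%) was close to the 32.3% of all filtered cells pooled. There were no control samples to set beside this value. With 2 lanes and 1 mouse no group was large enough to look for outlying samples.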

How the results depend on the processing

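The median positions of the slow contractile list (18.2% to 33.1% with both lanes) and of the isoform pairs were above 0 and under 50% in every setting. The slow list ran from 12.8% to 33.6% and the pairs from 30.6% to 40.2% when a lane was left out. The pairs moved to 39.7% with the median of CPM over cells and 39.2% with a lower limit of 0.30, and to 39.4% with the median over cells of the share of each pair, added after seeing the data.

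The fast contractile list was the least settled. Its median position was 47.9% with TMM factors, 50.1% with mean and 51.6% with median CPM over cells, 50.3% with each cell thinned to 28827 counts, 49.2% as the mean within 5 plates, 54.9% and 22.9% with a lower limit of 0.30 and 0.20, 49.2% without cells of at least 10% Myh7, 38.7% without the 25% of cells highest in other-cell markers and 61.8% with mt-Rnr1 and mt-Rnr2 left out of the mitochondrial share. It was 41.3% in cells of at least 150000 counts, and 46.2% to 48.6% with a lane left out. Among alternatives added after seeing the data, it was 73.3% in cells under 150000 counts, 48.4% without 4 G barcodes, 46.9% without them in deep cells, and 41.8% without cells of at least 2000 CPM of other-cell markers.

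Genes at least 1.5-fold higher and lower in hybrids than in low-Myh2 cells numbered 263 and 269. They were 682 and 409 with mean CPM, 32 and 41 after thinning, 727 and 474 with the ribosomal mitochondrial genes left out of the share, 4564 and 3908 with no count filter, 41 and 70 with a filter of 2000, 42 and 33 at 2-fold, and 79 and 166 in cells under 150000 counts. Thinning and the higher filter leave fewer genes to count. The higher genes alone were 163 in deep cells, 483 within plates, 139 without the 25% of cells highest in other-cell markers and 103 without cells over 2000 CPM of them. The lower genes alone were 1288 with median CPM and 92 with a limit of 0.20. With a lane left out they ran from 174 (without lane 2) to 355 and from 187 to 310. The share of separated genes that lay between was 49.4% with no count filter, 95.8% with a filter of 2000, and 68.2% (without lane 1) to 86.1% with a lane left out. Elsewhere the cause was not tested.

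Hybrids were 21.1% of deep cells, 17.8% of deep cells without 4 G barcodes, 40.3% of cells under 150000 counts, 40.4% with a lower limit of 0.20 and 38.5% (90 of 234 cells) with mt-Rnr1 and mt-Rnr2 left out of the share. With a lane left out they were 22.9% to 33.0%.

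Of 56 named genes past 1.5-fold in hybrids over low-Myh2 cells, 16 stayed past it in the same direction in all settings. The log2 ratio turned to 0.12 for Ucp1 with a limit of 0.20, to -0.0037 for Ldb2 without cells over 2000 CPM of other-cell markers, and to 0.74 for Nars2, 0.26 for B3gat3 and 0.30 for Snrpd1 in cells under 150000 counts. No paired analysis was possible because both samples belong to 1 group and no test was made, and the values within plates above compare the cell groups plate by plate.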
